A study of Mus musculus with 3 samples.

Results

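The 39 Hox genes of the mouse were examined in sorted cells of the leptomeninges, the thin inner membranes around the central nervous system. They were found as every row of the count table whose symbol was Hox followed by a cluster letter from a to d and a number, which gave 39 of 46983 gene rows: 11 in the HoxA cluster, 10 in HoxB, 9 in HoxC and 9 in HoxD. The samples were 3 bulk RNA-seq libraries of 1 group, the pia-enriched fraction of vehicle-treated mice, numbered 1 to 3 as in the labels. Strain, sex, age, genotype and the nature of the vehicle were not given in the sources used here, and neither was the level of the body axis, brain or spinal cord, from which the membranes were dissected. Nothing in the labels said whether a library came from 1 animal or a pool, so p-values measure only the spread between these libraries, which may be technical.

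Hox genes encode homeodomain transcription factors that mark position along the head-to-tail axis. Within a cluster the genes lie in the order in which they are used, so that low-numbered paralogue groups are expressed from the hindbrain backwards and high-numbered groups in the lumbar and tail region and in the limb ends. Tissue in front of the hindbrain, and the neural crest that forms the forebrain meninges and much of the skull, is known to develop without Hox expression, whereas meninges further back arise largely from mesoderm. Fibroblasts of the adult body are known to keep a Hox pattern that depends on where they come from. The question was therefore whether these meningeal cells carried Hox transcripts, and which paralogues.

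No Hox gene had more than 3 counts in every library (0 of 39), against 34.3% of all gene rows and 64.3% of the protein-coding genes. The limit of 3 counts was used because a count of 0 allows up to 3, and it amounted to 0.152, 0.101 and 0.116 CPM (counts scaled to 1000000 per library, with the library sizes adjusted by edgeR's TMM factors) in libraries 1, 2 and 3. The counts were 0 for 30 of 39 Hox genes in all libraries, as they were for 46.6% of all gene rows and 21.3% of protein-coding genes. More than 3 counts in at least 1 library was seen for 4 of 39, against 44.4% of all gene rows and 73.9% of protein-coding genes. Hoxa2, Hoxc5 and Hoxd8 were among these 4, and the number was 2 without library 2 and 2 without library 3. The whole family held 37 counts among 75046428 gene counts.

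**Figure D1:**
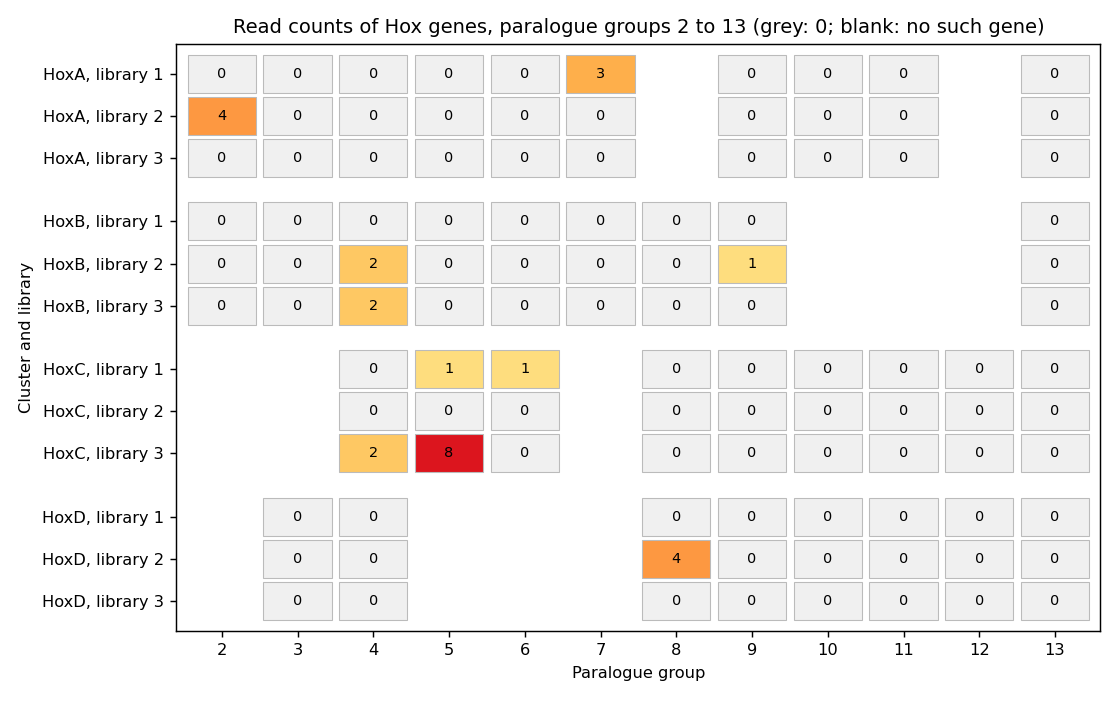
Read counts of the Hox genes of paralogue groups 2 to 13, by paralogue group (horizontal axis) and by cluster and library (vertical axis), with the count printed in each box, grey boxes for 0 and no box where the mouse has no such gene. The highest box is Hoxc5 with 8 counts in library 3, and groups 10 to 13 are at 0 in every library.

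The libraries held 21002860, 28704952 and 25338616 gene counts, and 37.3%, 40.7% and 39.6% of all gene rows were above 3 counts in libraries 1, 2 and 3. Summed over the family, the Hox counts were 5 in library 1 (exact Poisson 95% interval 1.62 to 11.7), 11 in library 2 (5.49 to 19.7) and 21 in library 3 (13 to 32.1). As CPM these sums were 0.253, 0.370 and 0.810, with a mean of 0.477 ± 0.294 (SD, n = 3). Library 3 was the highest and library 1 the lowest. On the CPM scale their separate 95% intervals were 0.501 to 1.24 and 0.0820 to 0.589. Overlap of such intervals does not decide whether the libraries differ, and the difference was not tested. Without library 3 the mean was 0.311 CPM. These intervals and the 3-count limits cover counting error only, because amplified reads without molecular identifiers are not independent molecules. In bulk RNA, fewer cells with a transcript and less transcript per cell cannot be told apart, here and for each gene below.

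The paralogue groups 1 to 4, which mark the hindbrain and the neck, had no count in any library in 8 of their 12 genes, and library 1 held none for the whole set. Hoxa2 (ENSMUSG00000014704.10, GRCm38 chromosome 6, 52162417 to 52164831), the selector gene of the hyoid pharyngeal arch, had 0, 4 and 0 counts in libraries 1, 2 and 3. Hoxb4 (ENSMUSG00000038692.8), also known for a role in blood stem cells, had 0, 2 and 2 counts, and Hoxc4 (ENSMUSG00000075394.4) had 0, 0 and 2. Hoxb4 and Hoxc4 thus stayed under the limit in each library. The 8 genes without a count, which include Hoxb1, Hoxb2 and all of Hoxa3, Hoxb3 and Hoxd3 of group 3, were at 0 throughout.

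The central paralogue groups 5 to 8, which pattern the neck and the thorax, held 5, 4 and 8 counts in libraries 1, 2 and 3, and 7 of their 11 genes had none. Hoxc5 (ENSMUSG00000022485.3, chromosome 15, 102967443 to 103017429) had 1, 0 and 8 counts. Hoxd8 (ENSMUSG00000027102.4, chromosome 2, 74704615 to 74707933) had 0, 4 and 0 counts, just above the limit in library 2. Hoxa7 (ENSMUSG00000038236.8) had 3, 0 and 0, exactly at it, and Hoxc6 (ENSMUSG00000001661.5) had 1, 0 and 0. The counts of the 4 genes fell in different libraries: Hoxa7, Hoxc6 and 1 count of Hoxc5 in library 1, Hoxd8 in library 2 and the rest of Hoxc5 in library 3.

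The posterior groups 9 to 13, which pattern the lumbar and tail region, the limb ends and the urogenital tract, had 16 genes and 1 count in all. That count belonged to Hoxb9 (ENSMUSG00000020875.9), in library 2. The other 15 genes, among them the members of group 13 in each cluster (Hoxa13, Hoxb13, Hoxc13 and Hoxd13), had 0 counts in libraries 1, 2 and 3. Over the 3 libraries together, the limit of 3 counts amounts to 0.0397 CPM.

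The counts were also set out by cluster and library. In HoxA, Hoxa7 was found in library 1 and Hoxa2 in library 2. HoxB held 0, 3 and 2 counts in libraries 1, 2 and 3, HoxC 2, 0 and 10, and HoxD 0, 4 and 0. Of the 9 Hox genes with any count, 7 had counts in 1 library, 2 (Hoxb4 and Hoxc5) in 2 libraries and 0 in all 3. Among all 5844 gene rows with a total of 1 to 9 counts, the range of these 9 genes, 56.4% had their counts in 1 library. Among the 1586 protein-coding ones 60.7% did. A total of 1 count can only lie in 1 library, and these shares were not matched to the totals of the 9 genes. Whether the Hox share differs from them was not tested.

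Since Hox transcripts differ in length, the order of levels was set on counts per kilobase of exon, scaled to 1000000 per library (TPM, computed here from the counts). Among the genes given here Hoxc5 was at 0.120 ± 0.170 TPM (SD, n = 3), Hoxa2 at 0.0851 ± 0.147, Hoxb4 at 0.0610 ± 0.0530 and Hoxd8 at 0.0550 ± 0.0953. Hoxa7, Hoxc4, Hoxc6 and Hoxb9 followed at 0.0480 or less. Neighbours in this order were all within 1 SD of each other, so the order was not resolved.

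None of the 39 genes passed the filter on low counts for the test of variation between libraries (edgeR goodness of fit, adjusted p under 0.05), which called 63 of 14409 genes (0.437%). That number was 27, 28 and 12 without libraries 1, 2 and 3. A call means that the libraries spread more than for genes of similar abundance, so a gene that was not called may still vary. With no filter, 9 Hox genes could be tested in edgeR and 0 were called, and 1 had an unadjusted p below 0.05. With the dispersion trend of DESeq2 none passed the filter either, so 0 were tested.

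Reads that overlap exons of more than 1 gene are set apart by counters such as HTSeq, which could lower the counts of Hox genes, so the exon overlap was measured in GENCODE M21. Of the 39 Hox genes, 16 shared exon bases with another gene, among them antisense transcripts and other Hox genes, and 11.9% of the 102.9 kb of Hox exon was shared. Hoxd3, Hoxb3 and Hoxd4 shared most, 62.8%, 52.9% and 52.3% of their exons. In the 16 genes with a shared base there were 25 counts over 51.07 kb, and 12 of those 16 were at 0 in all libraries. In the 23 genes with no shared base there were 12 counts over 51.81 kb, and 18 of those 23 were at 0 in all libraries. None of the 23 was above 3 counts in every library, which follows from the 0 of all 39 genes given above. The table's row for reads shared by several genes held 1.39%, 1.35% and 1.31% of all reads in libraries 1, 2 and 3. The row for reads that did not align uniquely was larger, at 16.9%, 15.3% and 17.4%. Which genes the reads of either row belonged to cannot be read from the table.

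Most noncoding and divergent genes of the clusters were at 0 as well, 13 of the 17 listed. Between the first and the last Hox gene of each cluster lay 46 other annotated rows, of which 39 had 0 counts, against 46.6% of all gene rows. Of the 46, 23 were annotated as miRNA or misc_RNA, all at 0, and of the other 23 rows 16 were at 0. Hotair, Haglr, Hoxb3os, Hoxb5os and Hoxa11os, long noncoding or antisense transcripts of the clusters, were at 0 in each library, and so was Hottip beside HoxA. The 5 listed microRNA genes of the Mir10 and Mir196 families were at 0 too, in libraries not made for small RNA. In HoxA, Hoxaas3 had 4 counts, Hoxaas2 had 2, and Hotairm1 and Gm15050 had 1 each, all in library 3. In HoxD, Hoxd3os1 had 1 count, in library 1. Without strand information, a gene and its antisense partner cannot be told apart where they overlap. In HoxB, the long noncoding Gm53 had 3, 0 and 8 counts, and the processed pseudogene Gm11539 had 21, 10 and 7. Gm11539 was the 1 row inside a cluster above 3 counts in every library, and its reads are uncertain because a pseudogene resembles its parent gene. Evx1 and Evx2, homeobox genes that border the posterior ends of HoxA and HoxD, were at 0 in all libraries.

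Genes just outside the clusters were detected about as often as protein-coding genes in general. Of 50 protein-coding genes within 500 kb of a cluster, 34 were above 3 counts in every library (68.0%), against 64.3% of all protein-coding genes. Beside HoxD, Mtx2, a mitochondrial import gene 60.7 kb from the cluster, had 21, 157 and 133 counts, and Lnp, a gene for a protein of the endoplasmic reticulum (88.9 kb), had 188, 683 and 544. Around HoxA the nearest such genes were Skap2 at 143 kb, with 289, 417 and 467 counts, and Hibadh at 285 kb, with 1149, 2311 and 2354. HoxC lay between Calcoco1 at 199 kb (2625, 2405 and 2116 counts) and Smug1 at 116 kb (122, 339 and 428 counts). For HoxB they were Atp5g1 at 119 kb (3101, 2610 and 3271 counts) and Snx11 at 399 kb (765, 849 and 833). Nearer to HoxB lay protein-coding genes with few counts: on one side Ttll6 at 28.9 kb had 1, 0 and 5 counts and Calcoco2, the next gene out, had 0 in each library, and on the other side Skap1 at 96.3 kb had 0, 0 and 9. Among 14 listed flanking genes 12 were above the limit in every library, led in CPM by Tax1bp1 (368 ± 130), Cbx5 (148 ± 60.1), Calcoco1 (98.3 ± 29.7) and Atf7 (79.5 ± 12.3). The 4 clusters thus sat in stretches of 246 kb (HoxD) to 692 kb (HoxB) between protein-coding genes above the limit in every library.

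**Figure D2:**
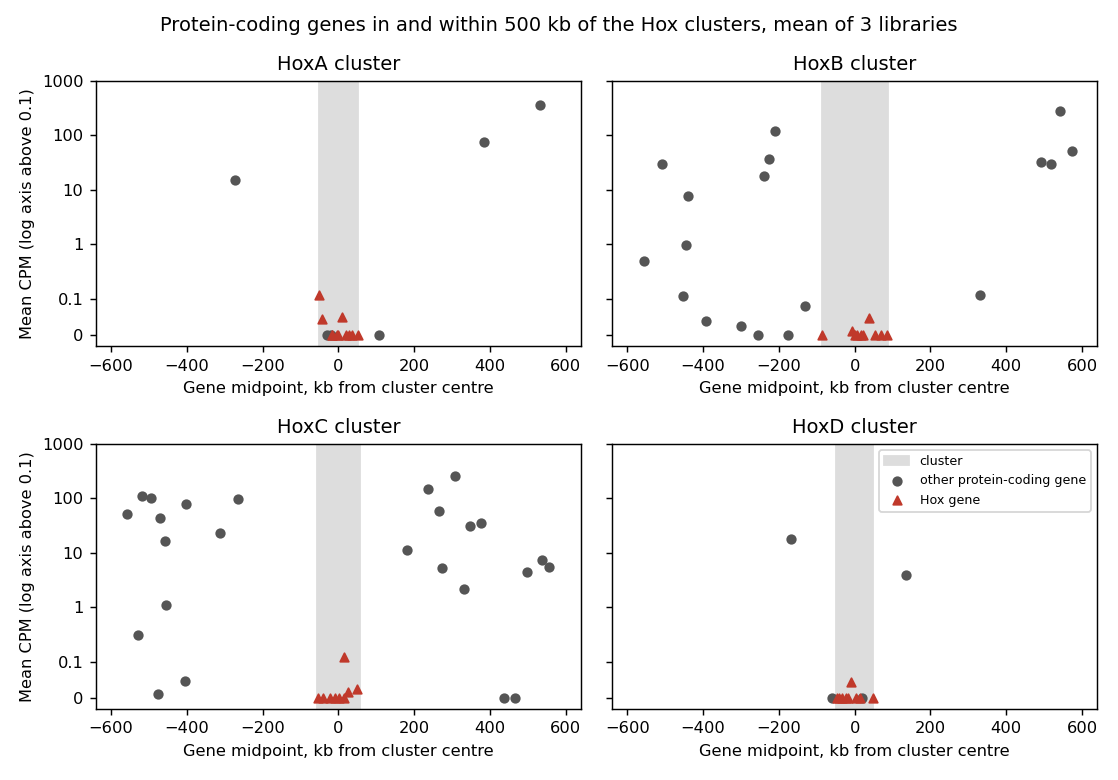
Mean CPM over 3 libraries (vertical axis, logarithmic above 0.1) of each protein-coding gene against the distance of its midpoint from the centre of each Hox cluster in kb, with Hox genes as red triangles, other genes as grey circles and the cluster shaded. Hox genes lie at or near 0 in all 4 panels, and 34 of 50 neighbouring genes were above 3 counts in every library.

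Promoter sequence was compared next, because CpG-rich promoters are used in most tissues. The 250 bases upstream of the transcription start were taken from RefSeq (GRCm38.p6), which matched 22 of the 39 Hox genes; CpG means the letters CG, which read the same on both strands. They are shown for the Hox gene with the most CpGs (Hoxa13), for Hoxa2 and Hoxd8, the genes above 3 counts in library 2, and for Msx1 and Prrx1, 2 homeobox genes that were abundant here. Each is written 5′ to 3′ on the strand of its gene, with CpGs in capitals. Hoxa13 is chr6:52260881-52261130 (minus strand), Hoxa2 chr6:52164832-52165081 (minus), Hoxd8 chr2:74704365-74704614 (plus), Msx1 chr5:37824586-37824835 (minus) and Prrx1 chr1:163313651-163313900 (minus).
Hoxa13: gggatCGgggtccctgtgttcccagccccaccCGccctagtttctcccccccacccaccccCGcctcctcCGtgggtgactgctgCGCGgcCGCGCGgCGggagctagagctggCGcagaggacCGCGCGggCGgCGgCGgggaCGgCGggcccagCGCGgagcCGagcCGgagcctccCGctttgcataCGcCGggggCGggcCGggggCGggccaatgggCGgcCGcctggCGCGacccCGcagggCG
Hoxa2: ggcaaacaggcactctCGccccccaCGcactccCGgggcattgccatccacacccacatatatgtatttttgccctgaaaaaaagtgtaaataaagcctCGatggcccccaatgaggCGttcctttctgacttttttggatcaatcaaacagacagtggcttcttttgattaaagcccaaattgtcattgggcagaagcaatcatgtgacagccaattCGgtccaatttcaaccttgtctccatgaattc
Hoxd8: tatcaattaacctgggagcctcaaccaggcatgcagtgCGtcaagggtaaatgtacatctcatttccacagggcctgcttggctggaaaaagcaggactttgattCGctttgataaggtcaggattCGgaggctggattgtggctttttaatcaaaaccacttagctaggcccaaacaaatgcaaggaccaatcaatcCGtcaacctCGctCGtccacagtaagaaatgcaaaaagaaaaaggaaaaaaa
Msx1: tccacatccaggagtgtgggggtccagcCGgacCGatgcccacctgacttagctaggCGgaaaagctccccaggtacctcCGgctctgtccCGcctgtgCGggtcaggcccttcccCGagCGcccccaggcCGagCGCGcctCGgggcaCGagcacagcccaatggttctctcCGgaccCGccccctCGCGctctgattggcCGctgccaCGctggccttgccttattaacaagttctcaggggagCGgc
Prrx1: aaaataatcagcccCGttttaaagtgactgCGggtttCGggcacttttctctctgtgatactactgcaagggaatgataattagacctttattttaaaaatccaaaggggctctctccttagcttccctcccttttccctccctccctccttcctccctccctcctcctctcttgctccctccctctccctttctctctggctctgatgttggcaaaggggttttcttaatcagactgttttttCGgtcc

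The Hoxa13 sequence held 35 CpGs, Msx1 20, Hoxa2 and Hoxd8 6 each, and Prrx1 4. So Hoxa13, at 0 counts, had more than the abundant Msx1, and the abundant Prrx1 had fewer than Hoxa2. Over the 22 Hox promoters the median was 12.5 CpGs (range 3 to 35), against 11 over 15833 protein-coding genes with a promoter in the table. Among the 7121 genes with at least 12.5 CpGs, 91.7% were above 3 counts in every library, and among all 15833 it was 66.5%. Of the 22 Hox genes it was 0, which follows from the 0 of all 39 given above and adds nothing to it. When all genes were ordered by CpG number and split into 10 bins of equal size, 7 Hox genes fell in the 3 most CpG-rich bins, where 91.6% to 92.9% of genes were above the limit in every library. A TATA box, the letters TATAAA on either strand, was found in 4 of the 22 Hox promoters (18.2%) and 13.1% of all, and the letters CCAAT on either strand in 14 (63.6%) and 39.2%. Such matches describe these windows and show no binding.

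**Figure D3:**
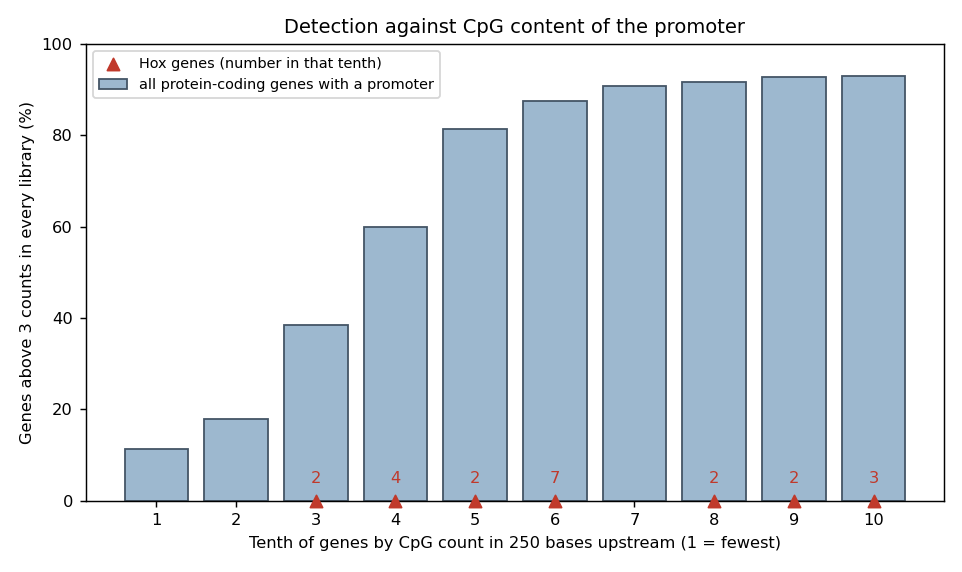
Share of protein-coding genes above 3 counts in every library (bars, percent) in 10 equal bins of genes ordered by the number of CpGs in 250 upstream bases, with red triangles for the Hox genes of a bin and their number above. The bars rise from 11.4% to 92.9%. The Hox triangles are at 0 in each bin that holds any, because no Hox gene passed this limit.

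Other positional genes were examined next. In 4 lists, of head, midbrain and cranial mesenchyme genes and of trunk and limb genes, with 57 genes in all, 27 were above 3 counts in every library (47.4%), against 64.3% of all protein-coding genes and 0 of the 39 Hox genes. Of the homeobox genes of cranial mesenchyme 13 of 19 were above the limit in every library, with summed levels of 745, 641 and 495 CPM in libraries 1, 2 and 3. Prrx1, a mesenchymal factor of the face and limb, was at 396, 349 and 274 CPM (339 ± 61.7, SD, n = 3). Msx1, a factor of the skull and palate, was at 134, 118 and 81.6 CPM, and Alx4, of the skull vault, at 101, 90.1 and 64.1 CPM. Each of these 3 genes was highest in library 1 and lowest in library 3. Of the 8 cartilage and bone markers, Alpl had the same order (4871, 3350 and 2569 CPM), and the other 7, Sox9 and Runx2 among them, were each highest in library 2. Per length, Msx1 was at 110 ± 23.8 TPM and Prrx1 at 94.0 ± 14.5 TPM, against 0.597 ± 0.374 TPM for the 39 Hox genes together. Prrx2, Alx1, Dlx5 and Msx2 lay between 15.5 and 26.3 CPM on average. Pitx1, a hindlimb and pituitary gene, had 1 count in all.

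Head and forebrain homeobox genes were detected in part, 5 of 14 above the limit in every library. Otx2, the gene that defines the forebrain and midbrain and is also expressed in choroid plexus, was at 17.8, 35.7 and 30.8 CPM in libraries 1, 2 and 3. The 8 choroid plexus markers summed to 110, 3274 and 4999 CPM in the same order, so both were lowest in library 1; their part in the Otx2 level was not tested. Lhx9 was at 3.90 ± 0.698 CPM, Otx1 at 0.938 ± 0.489 CPM and Six3 at 0.530 ± 0.493 CPM, with 0, 29 and 16 counts. Vax1, Vax2 and Six6, genes of the eye and ventral forebrain, were at 0 in all libraries. With at least 10 counts as the limit, or counts scaled to the smallest library, 3 of the 14 passed in every library.

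Among genes of the midbrain and the isthmus 3 of 9 were above the limit in every library. Lmx1b, a factor of the isthmus and of limb and skull mesenchyme, was at 44.9, 23.4 and 18.2 CPM, and its relative Lmx1a at 2.67 ± 1.67 CPM. Pax2 had 0 counts. En2 was at 1.16 ± 0.232 CPM, and En1 had 13, 12 and 0 counts. Pax5 had 0, 101 and 74 counts; it is also a B cell gene, and the 8 lymphocyte markers summed to 6.82, 56.1 and 65.1 CPM, so that both were lowest in library 1. Whether B cells carried the Pax5 counts was not tested.

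Of the trunk and limb genes, 6 of 15 were above the limit in every library. Tbx18, a gene of somites and of mural cells, was at 23.5 ± 9.78 CPM, Meox1 at 5.89 ± 2.74 CPM, Meox2 at 4.15 ± 1.60 CPM and Pax3 at 3.08 ± 0.351 CPM. Among the other 9, Cdx2, Cdx4, Tbx4, Pax7 and T (brachyury) had 0 counts, Cdx1 had 2 and Tbx5 had 1. For edgeR's goodness-of-fit test the filter, with 1 group, kept only genes that reached its limit in every library. Pax5, Six3 and En1 were among the genes it removed, so this fit did not test them. It kept 24 genes of these 4 lists, of which 0 were called variable between libraries, against 0.437% of all genes tested. In edgeR's test 1 had an unadjusted p below 0.05, Dlx5 at 24.7, 19.2 and 5.05 CPM, with a Benjamini-Hochberg adjusted p of 0.43872. With DESeq2's dispersion trend the counts were again 0 and 1 of 24. With a filter on a mean count of at least 10, 26 were tested and 1 was called, Pax5 (edgeR goodness of fit, Benjamini-Hochberg adjusted p = 0.035), and over the other alternatives run the lowest adjusted p of the 4 lists ranged from 0.058 to 0.976.

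**Figure D4:**
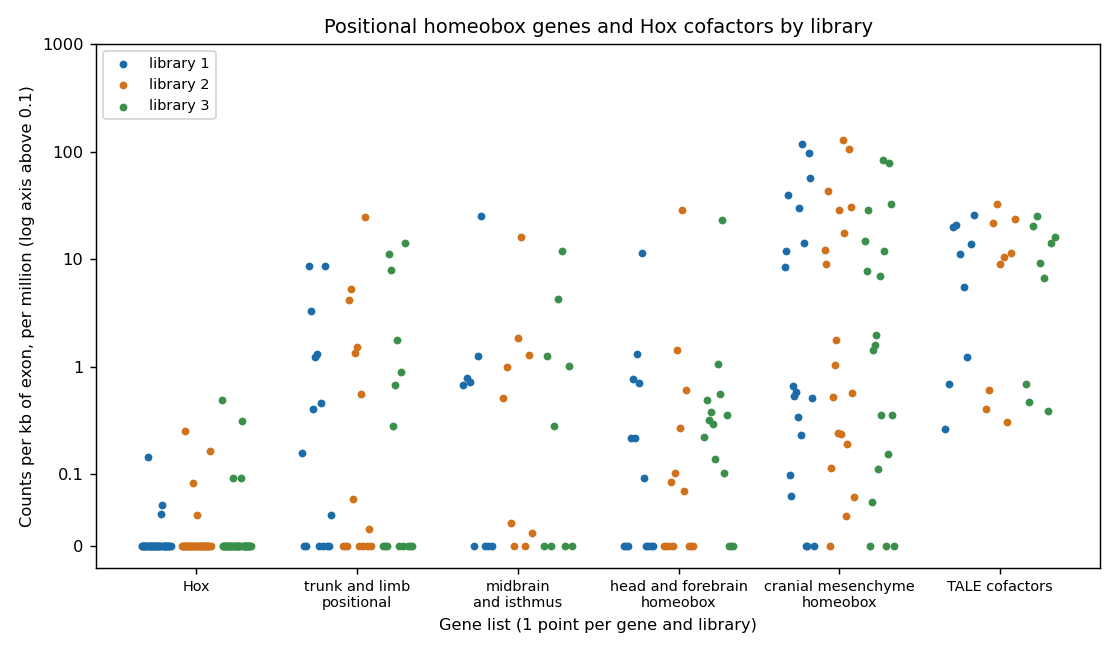
Counts per kilobase of exon, scaled to 1000000 per library (vertical axis, logarithmic above 0.1) of each gene in each library, for the Hox genes, 4 lists of other positional genes and the TALE cofactors, with 1 point per gene and library and colours for libraries 1 to 3. The Hox points stay under 0.5, whereas the highest of the cranial mesenchyme list, Msx1 and Prrx1, average 110 and 94.0.

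The genes of the TALE homeodomain proteins, which bind DNA together with Hox proteins but also work without them, were all detected. Of these genes 9 of 9 were above 3 counts in every library, against 64.3% of all protein-coding genes. Pknox2 was at 96.7, 72.7 and 52.6 CPM in libraries 1, 2 and 3. Per length, Pknox2 and Meis3 were at 21.8 ± 5.04 and 20.6 ± 0.879 TPM, which differ by less than the SD of Pknox2. Pknox1 (13.1 ± 1.47 TPM), Pbx2 (9.78 ± 1.19) and Pbx3 (7.60 ± 2.64) lay lower, and Pbx4, Meis2 and Meis1 were under 1 TPM on average. By edgeR 0 of the 8 that passed the filter were called variable, against 0.437% of all genes tested. The number at an unadjusted p below 0.05 was 0, and DESeq2's trend gave 0 and 0.

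Retinoic acid, made by retinaldehyde dehydrogenases and read by nuclear receptors, is a known inducer of Hox genes in the embryo. Of 16 genes of this pathway 14 were above the limit in every library, against 64.3% of all protein-coding genes. Crabp2, which carries retinoic acid to its receptors, was at 224, 124 and 139 CPM. The receptor genes Rarg and Rxra were at 129 ± 60.3 and 111 ± 29.3 CPM, and the synthetic enzyme gene Aldh1a2 at 65.3 ± 1.82 CPM. The degrading enzymes were low: Cyp26b1 was at 2.74 ± 1.07 CPM, Cyp26a1 at 0.229 ± 0.0998 CPM, and Cyp26c1 had 0 counts. By edgeR 0 of 14 were called variable, against 0.437% of all genes tested. The number at an unadjusted p below 0.05 was 0, and DESeq2's trend gave 0 and 0.

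Polycomb proteins keep Hox genes silent and Trithorax proteins keep them active. Of the listed genes of both groups 22 of 22 were above 3 counts in every library, against 64.3% of all protein-coding genes. The histone-binding genes Rbbp7 and Rbbp4, which also belong to other complexes, were at 479 ± 134 and 266 ± 45 CPM. Ezh1, a histone H3 methyltransferase of resting cells, was at 130, 114 and 105 CPM, and its proliferation-linked counterpart Ezh2 at 5.51, 6.99 and 5.63 CPM. Per length they were at 48.0 ± 3.57 and 2.81 ± 0.651 TPM. Kmt2a, the Trithorax methyltransferase, was at 80.3 ± 24.8 CPM. By edgeR 0 of 22 were called variable, against 0.437% of all genes tested. The number at an unadjusted p below 0.05 was 0, and DESeq2's trend gave 0 and 1.

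The label of the samples was checked against markers. The 8 fibroblast markers were above 3 counts in every library and summed to 23666, 29319 and 25504 CPM. Markers of other cell types were found as well. Mural, Schwann, astrocyte and erythroid marker sums, in libraries 1, 2 and 3, were 3304, 2838 and 5029 CPM, 2442, 2167 and 3484 CPM, 1086, 765 and 779 CPM, and 822, 207 and 341 CPM. The astrocyte sum came mostly from Gjb6 (552 CPM on average) and S100a1 (261 CPM), while Gfap, Aqp4, Aldh1l1, Slc1a2 and Agt averaged 1.85 to 9.65 CPM. The cartilage and bone sum, most of it Alpl, was 5038, 3562 and 2720 CPM. Endothelial and neuronal marker sums lay between 80.7 and 121 CPM. Myeloid markers summed to 10.8, 238 and 679 CPM, lymphocyte markers to 6.82, 56.1 and 65.1 CPM and blood progenitor markers to 3.59, 8.84 and 8.41 CPM, with the progenitor gene Ctsg at 0. The Hox counts (5, 11 and 21) were lowest in library 1, and so were these 3 sums and those of the choroid plexus (110, 3274 and 4999 CPM), fibroblast and neuron markers. The part of any of these cells in the Hox counts was not tested. Of the markers tested for variation between libraries, edgeR called 5 of 5 myeloid and 4 of 8 choroid plexus genes. It also called 2 of 3 lymphocyte genes and 1 of 7 Schwann genes, and 0 in each other marker list. The share over all genes tested was 0.437%. With DESeq2's dispersion trend the calls were 5, 5, 2 and 1, and again 0 in the other marker lists. Skeletal muscle markers summed to 3.89, 1.48 and 1.85 CPM, with Myf5, Myf6 and Pax7 at 0.

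Genes of 2 sensory receptor families, chosen after the Hox values had been seen, gave a comparison with genes used mainly in sensory neurons of the nose. Of 1062 olfactory receptor genes 93.4% had 0 counts in all libraries and 0.471% were above 3 counts in every library. For 293 vomeronasal receptor genes these shares were 95.2% and 0. The Hox genes, at 76.9% and 0, had a smaller share at 0. In counts per kilobase of exon, pooled over the libraries, they lay between the families. These were 1.48 for olfactory receptor, 0.0566 for vomeronasal receptor and 0.36 for Hox genes. More than 3 counts in at least 1 library was reached by 4.14% of olfactory and 2.05% of vomeronasal receptor genes, and by 10.3% of Hox genes, which is 4 genes. Exons of Hox genes had a median GC content of 54.1%, against 39.8% and 39.4% in these families.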

How the data were processed

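Leptomeninges were dissociated and sorted, and 2 ng of RNA per library was amplified over 12 cycles with a template-switching kit, per the labels' protocols. The deposited values were raw counts per gene, whole numbers with a different total in each library. The submitters' processing notes name HTSeq 0.5.3, DESeq2 1.22.1 and mm10, without saying what each was used for. The aligner, annotation release and strand setting were not given in the sources used here. The labels name a normalized table, which was not used here. The 5 counter rows, with 45.6%, 39.1% and 39.6% of the reads of libraries 1, 2 and 3, name no gene and were left out.

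CPM used library sizes scaled by TMM in edgeR 4.0.16 (R 4.3.3). With 1 group there was no contrast. Variation between libraries was tested over the whole table in edgeR (filterByExpr, minimum count 10, trended dispersion, goodness of fit on 2 degrees of freedom, Benjamini-Hochberg, threshold 0.05), and the script was tested on simulated data. DESeq2 1.42.0 gave alternative size factors and dispersions. Coordinates, exon lengths and overlaps are from GENCODE M21 (GRCm38), which held 98.9% of the gene identifiers; the authors' annotation may differ. Poisson intervals are exact, at 95%.

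The members and gene lists were chosen with earlier results of these data known. The text gives the Hox genes by value, range or count, the 4 genes with the highest mean CPM of each positional, regulator or flanking list, the TALE cofactors, the nearest protein-coding neighbours of each cluster and listed genes at 0; marker lists are given as sums, and any other gene was chosen after its values were seen. Values of some genes under this rule are not reported here. Of 244 list entries, 239 had a row of their own. The receptor families and the promoter comparison were also chosen after values were seen. TPM here means counts per kilobase of exon, scaled to 1000000 per library.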

Additional observations from a re-analysis of the deposited data

Results flagged for a closer look

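Reads that the table assigned to more than 1 gene lay outside the measurements used and were above what a count of 0 allows: they made up a mean of 1.35% of all reads. The table does not say which genes they touched, and their part in the low Hox counts was not tested beyond the exon overlap given above. The part of the larger row of reads that did not align uniquely was not tested.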

How the results depend on the processing

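The number of Hox genes above 3 counts in every library was 0 under each alternative tried, any count and each library left out included. The number above it in at least 1 library (4) was 9 with any count, 0 with at least 10 counts, 2 when counts were scaled to the smallest library, and 2 to 4 with 1 library left out: 2 without library 2, which holds Hoxa2 and Hoxd8, and 2 without library 3, which holds most of Hoxc5. The summed Hox level (0.477 CPM) ranged from 0.311 without library 3 to 0.590 without library 1, and was 0.358 without Hoxc5. Hox genes called variable stayed at 0, since none passed the filters except with no filter, where 9 were tested. All genes called variable were 63 of 14409 (0.437%) in the main fit. They were 134 of 25083 with no filter (0.534%) and 181 of 16392 with a mean count of at least 10 (1.1%). With GC content and length trends removed 101 were called, and the cause of these changes was not tested. With 1 library left out, which leaves fewer samples, the number was 12 to 28. Of 132 alternatives for the numbers of other listed genes above 3 counts, 127 stayed within 1.5 times and 5 moved further. No paired analysis was possible because all 3 libraries form 1 group. Depth sets the limit: 3 counts are 0.152 CPM in library 1.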

Other observations

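Several other genes, most of them developmental, had all or nearly all of their counts in a single library. Of the Hox genes with any count, 7 of 9 had counts in 1 library, against 56.4% of all gene rows with totals of 1 to 9. In library 3 the forebrain genes Emx2 and Emx1 had 12 and 4 counts, and the isthmus gene Gbx2 had 5, with 0 counts of each in libraries 1 and 2. The T cell adaptor gene Skap1, which neighbours HoxB, had 9 counts in library 3 and 0 in the others. Gbx1 had 18 counts in library 1, 1 in library 2 and 0 in library 3. These genes were picked after their values had been seen.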
